A study of Mus musculus with 12 samples.

Results

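Insulin signalling was followed through 10 genes chosen by name: Insr, Irs1, Irs2, Pik3r1, Akt1, Akt2, Slc2a4, Pde3b, Foxo1 and Pck1. All 10 were among the 20632 gene symbols of the deposited count tables, and all 10 were among the 12175 genes with enough counts to be tested. The tissue was the gonadal (peri-uterine) white fat of pregnant mice at embryonic day 17.5, sequenced from the 3' ends of its transcripts in 12 libraries. The 4 WT vehicle libraries came from wild types, labelled for Tnfrsf11a (which encodes RANK) and Foxn1 without Cre, and given vehicle. The 4 KO vehicle libraries came from knockouts, labelled for the same genes with Cre, and given vehicle. The 4 KO Treg libraries came from knockouts given the treatment labelled Treg, and the labels used here give no more about that treatment or its dose. Every animal was pregnant, and the labels give neither the age of the mothers nor the strain.

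Insulin binds its receptor on the adipocyte, the receptor phosphorylates the substrate proteins IRS1 and IRS2, and these recruit phosphoinositide 3-kinase, which activates the AKT kinases. In fat, AKT sends the glucose transporter GLUT4 to the cell surface, activates phosphodiesterase 3B, which restrains lipolysis, and keeps FOXO1 out of the nucleus. Insulin also represses Pck1 and, in several tissues, Irs2, and it induces lipogenic genes such as Fasn, the fatty acid synthase. In late pregnancy the maternal tissues respond less to insulin. Transcript levels report neither phosphorylation nor the place of a protein in the cell.

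Library totals ran from 5551970 to 12972700 counts. The 6 adipocyte markers (Adipoq, Plin1, Cidec, Fabp4, Pparg and Lipe) were detected in every group, and their summed level overlapped between the 3 groups, from 28922 to 47133 CPM (counts relative to the scaled total of their library). Foxn1-Cre acts in thymic epithelium, so Tnfrsf11a in fat checks nothing about the deletion, and its level overlapped between the groups (4.66 to 10.6 CPM). KO vehicle 1 and KO Treg 2 held placental transcripts, with summed levels of 23.7 and 70.0 CPM against at most 1.39 CPM in the other 10 libraries. WT vehicle 1 had the highest summed level of brown or beige adipocyte markers (5507 CPM, against 50.5 to 2119 CPM elsewhere). The 6 smooth muscle markers summed to 207 to 1955 CPM in WT vehicle and 267 to 744 CPM in KO vehicle. All 6 had log2 fold changes of KO vehicle over WT vehicle below 0 (median -1.92, 0 called by edgeR). WT vehicle 3 had the lowest adipocyte sum and the highest smooth muscle and stromal progenitor sums (1955 and 3388 CPM). The part of these sums in the results below was not tested. The labels carry animal numbers from a lower and from a higher range, without naming either as a batch. KO vehicle drew its 4 animals from the lower range, and WT vehicle and KO Treg drew 2 from each.

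The stretches just upstream of 3 of the genes are shown because Irs2 and Pck1 were the members whose groups did not overlap in the comparisons of knockouts given vehicle, and because Irs1 is the other substrate gene of the set. Each runs 5' to 3' on the strand of its gene over the 250 bases before the RefSeq start site (GRCm38.p6). Capitals mark 3 short motifs searched on both strands, CAAAACA (the core of insulin response elements, read as TGTTTTG on the other strand), CACGTG (an E-box) and TGACGT (a cyclic AMP response element core, read as ACGTCA).
Irs1, chr1:82291440-82291689, minus strand: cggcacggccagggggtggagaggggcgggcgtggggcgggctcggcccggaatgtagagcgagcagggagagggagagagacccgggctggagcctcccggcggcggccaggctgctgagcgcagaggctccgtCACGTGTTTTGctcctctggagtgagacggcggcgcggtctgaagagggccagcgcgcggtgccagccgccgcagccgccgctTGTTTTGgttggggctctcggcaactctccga
Irs2, chr8:11008930-11009179, minus strand: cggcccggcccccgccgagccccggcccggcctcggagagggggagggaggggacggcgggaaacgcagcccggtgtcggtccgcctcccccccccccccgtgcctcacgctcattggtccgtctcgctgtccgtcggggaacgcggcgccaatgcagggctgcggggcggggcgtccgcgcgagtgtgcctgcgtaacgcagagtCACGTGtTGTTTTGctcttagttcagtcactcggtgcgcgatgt
Pck1, chr2:173152823-173153072, plus strand: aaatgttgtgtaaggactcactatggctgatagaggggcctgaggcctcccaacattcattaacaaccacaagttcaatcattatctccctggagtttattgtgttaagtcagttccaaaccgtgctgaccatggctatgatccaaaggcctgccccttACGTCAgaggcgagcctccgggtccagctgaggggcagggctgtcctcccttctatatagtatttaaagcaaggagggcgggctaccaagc

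In Irs2 the E-box starts at position -44 and the CAAAACA core at -37, counted from the RefSeq start site at 0. In Irs1 an E-box at -115 overlaps a CAAAACA core at -111, and another core lies at -32. In Pck1 the cyclic AMP response element core begins at -91. Over windows of 300 bases (250 before to 50 after the start), CAAAACA was in 6.28% of 32851 RefSeq promoters, CACGTG in 7.15% and TGACGT in 7.51%. Both CAAAACA and CACGTG were in 134 of them (0.408%), those of Irs1 and Irs2 included, and this pairing was chosen after the matches had been seen. A forkhead core, GTAAACA, was in 3.65% of promoters and, among the insulin signalling genes, in that of Akt1 (at -161). Promoters were matched for 7 of the 10 genes, and Insr, Slc2a4 and Pde3b had no entry in the table. These matches describe letters in a window, and binding was not measured.

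None of the 10 genes passed the test in any comparison. The comparisons addressed the difference between knockouts and wild types on vehicle, and that between knockouts on the Treg treatment and each vehicle group. Between KO vehicle and WT vehicle, edgeR's quasi-likelihood test called 0 of 10 at an adjusted p under 0.05, against 34 of 12175 genes (0.279%). Between KO Treg and KO vehicle it called 0 of 10, against 1 gene overall (0.00821%). Between KO Treg and WT vehicle it called 0 of 10, against 0 genes overall (0%). At an unadjusted p under 0.05, the counts were 1 of 10 (Irs2), 1 of 10 (Pck1) and 0 of 10, beside 1514 (12.4%), 1068 (8.77%) and 349 (2.87%) of all genes tested. DESeq2, run as an alternative, also called 0 of the 10 in each comparison, against 259 (2.13%), 68 (0.581%) and 1 (0.00822%) of the genes to which it gave an adjusted p. The edgeR count over all genes between KO vehicle and WT vehicle moved with single libraries, from 1 when any of WT vehicle 3, KO vehicle 1 and KO vehicle 2 was left out to 125 without WT vehicle 4, and it was 0 in the lower number range alone or with the range as a covariate. Log2 fold changes of KO vehicle over WT vehicle were above 0 for 3 of the 10 genes (median -0.13, against -0.0039 over all genes tested), and those of KO Treg over KO vehicle were above 0 for 7 of the 10 (median 0.09, against -0.0018). The first and second comparisons share the KO vehicle libraries. Each library has a separate number in its label and was counted as 1 animal, and no library was paired with one of another group.

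**Figure D1:**
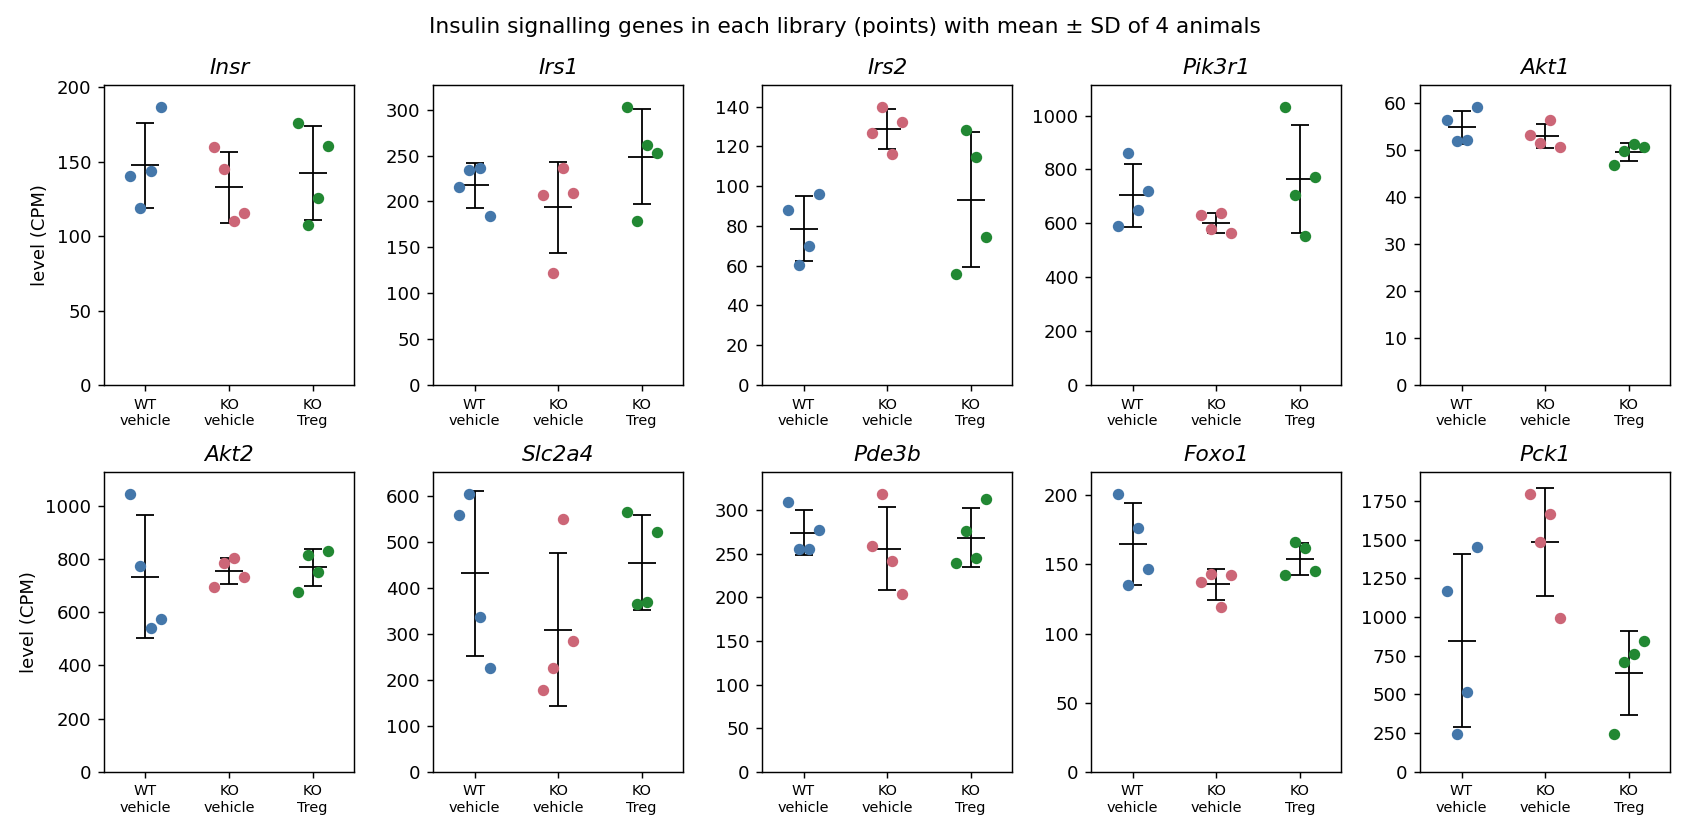
Level of each of the 10 genes (vertical axes, CPM, from 0) in the 4 libraries of WT vehicle, KO vehicle and KO Treg. Points are libraries and bars are the mean ± SD of 4 animals; the 4 KO vehicle points of Irs2 lie above the 4 WT vehicle points, and the 4 KO Treg points of Pck1 lie below the 4 KO vehicle points.

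Irs2, the substrate gene whose transcript insulin represses in several tissues, stood at 88.1, 60.2, 70.1 and 95.8 CPM in WT vehicle 1 to 4. It stood at 126, 140, 116 and 132 CPM in KO vehicle 1 to 4. It stood at 55.9, 128, 115 and 74.2 CPM in KO Treg 1 to 4. Every KO vehicle library was above every WT vehicle library, while KO Treg spanned both, with KO Treg 1 and 4 within or below the range of WT vehicle and KO Treg 2 and 3 within or just below that of KO vehicle. Means were 78.5 ± 16.3 CPM in WT vehicle, 129 ± 10.01 in KO vehicle and 93.2 ± 33.8 in KO Treg (SD, n = 4 each). The fitted difference between KO vehicle and WT vehicle was 1.64-fold (95% interval 1.18 to 2.27, log2 0.71 ± 0.22 SE). It did not pass the threshold after adjustment over all genes (edgeR adjusted p = 0.178). Irs2 was 1 of 792 genes (6.51%) whose 4 KO vehicle and 4 WT vehicle values did not overlap, and the only one of the 10 insulin signalling genes among them. Against KO vehicle, KO Treg was at a log2 fold change of -0.46 ± 0.22 (edgeR adjusted p = 0.575). With the library leave-outs and the other settings, the first of these differences ran from 0.60 to 0.82 and its adjusted p from 0.0786 to 0.397. In the lower number range alone it was 0.78 (edgeR adjusted p = 0.371), and without the libraries with placental transcripts 0.71 (edgeR adjusted p = 0.308). Exons of 9530052E02Rik overlap Irs2 on the other strand, over a length not given here. No source used here gives the strand setting of the counting, so any reads from the overlap cannot be assigned to either gene.

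Irs1, the other main substrate gene in fat, was at 215, 234, 236 and 184 CPM in WT vehicle 1 to 4. In KO vehicle 1 to 4 it was at 207, 122, 236 and 209 CPM, and in KO Treg 1 to 4 at 303, 178, 261 and 253 CPM. The 3 groups overlapped, with KO vehicle 2 the lowest library and KO Treg 1 the highest. The log2 fold change of KO Treg over KO vehicle was 0.36 ± 0.19 (edgeR adjusted p = 0.631), opposite in sign to that of Irs2. That of KO vehicle over WT vehicle was -0.17 ± 0.19 (edgeR adjusted p = 0.793). Exons of Gm9747 overlap Irs1 on the other strand, with the same limit as for Irs2.

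Insr, which encodes the receptor itself, lay between 119 and 187 CPM in WT vehicle, between 111 and 160 CPM in KO vehicle and between 107 and 176 CPM in KO Treg. Its groups overlapped in all 3 comparisons. The 95% interval of KO vehicle over WT vehicle ran from 0.69-fold to 1.17-fold, and that of KO Treg over KO vehicle from 0.82-fold to 1.40-fold.

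Pik3r1, which encodes the p85-alpha regulatory subunit of phosphoinositide 3-kinase, was at 589, 860, 648 and 720 CPM in WT vehicle 1 to 4. It was at 630, 579, 638 and 564 CPM in KO vehicle 1 to 4, and at 1031, 707, 552 and 772 CPM in KO Treg 1 to 4. The KO vehicle libraries were close together (603 ± 36.7 CPM), and KO Treg held both the highest and the lowest library of the 12. The difference between KO Treg and KO vehicle was 1.27-fold (95% interval 0.988 to 1.63, edgeR adjusted p = 0.601).

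Akt1, a kinase gene expressed in most tissues, was the steadiest of the 10. It stood at 56.2, 51.8, 52.1 and 59.0 CPM in WT vehicle 1 to 4, at 53.1, 51.5, 56.3 and 50.6 CPM in KO vehicle 1 to 4 and at 46.7, 49.7, 51.1 and 50.6 CPM in KO Treg 1 to 4. All 4 KO Treg libraries were below all 4 WT vehicle libraries, which held for 199 of the genes tested in either direction (1.63%) and for Akt1 alone among the 10. The nearest libraries stood at 51.1 and 51.8 CPM, and the log2 fold change was -0.15 ± 0.11 (edgeR adjusted p near 1). Within groups, the SD of Akt1 on the log2 scale was 0.0735, at the 0.214th percentile of the genes tested, against 0.0691 for counting error alone at 290 to 699 counts per library. The ratio of these SDs was 1.06 for Akt1 and ran from 4.34 (Foxo1) to 43.6 (Pck1) for the other 9 genes.

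Akt2, the AKT gene tied to glucose uptake in fat, was at 1045, 773, 543 and 576 CPM in WT vehicle 1 to 4. It lay between 694 and 803 CPM in KO vehicle and between 677 and 831 CPM in KO Treg. WT vehicle had both the highest and the lowest library, and the other groups lay between. The highest was WT vehicle 1, the library with the highest brown or beige adipocyte sum, whose part in this value was not tested. The 95% interval of KO vehicle over WT vehicle ran from 0.793-fold to 1.33-fold.

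Slc2a4, which encodes GLUT4, was at 558, 604, 337 and 225 CPM in WT vehicle 1 to 4. In KO vehicle 1 to 4 it was at 177, 226, 548 and 285 CPM, and in KO Treg 1 to 4 at 564, 365, 368 and 522 CPM. High and low libraries occurred within each of the vehicle groups, and the groups overlapped. The log2 fold change was -0.48 ± 0.38 for KO vehicle over WT vehicle (edgeR adjusted p = 0.671) and 0.56 ± 0.38 for KO Treg over KO vehicle (edgeR adjusted p = 0.741). Without KO vehicle 3 these were -0.92 and 1.001, with adjusted p-values of 0.225 and 0.305.

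Pde3b, which encodes the phosphodiesterase by which insulin restrains lipolysis, lay between 255 and 309 CPM in WT vehicle, between 204 and 318 CPM in KO vehicle and between 240 and 312 CPM in KO Treg. Its log2 fold changes were -0.10 ± 0.15 for KO vehicle over WT vehicle and 0.07 ± 0.15 for KO Treg over KO vehicle. The 95% intervals on the log2 scale were -0.41 to 0.21 and -0.24 to 0.38.

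Foxo1, the transcription factor gene whose protein AKT holds out of the nucleus, was at 201, 135, 176 and 147 CPM in WT vehicle 1 to 4. It was at 137, 143, 120 and 143 CPM in KO vehicle 1 to 4, and at 142, 166, 162 and 146 CPM in KO Treg 1 to 4. KO vehicle was lower on average (136 ± 11.1 against 165 ± 29.8 CPM in WT vehicle, SD, n = 4 each), but WT vehicle 2 lay inside its range. The log2 fold change was -0.28 ± 0.14 (edgeR adjusted p = 0.414). Exons of Gm20402 overlap Foxo1 on the other strand.

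Pck1, which encodes the cytosolic phosphoenolpyruvate carboxykinase that supplies glycerol 3-phosphate in fat and is repressed by insulin, was at 1166, 247, 516 and 1454 CPM in WT vehicle 1 to 4. It was at 1796, 1482, 1667 and 996 CPM in KO vehicle 1 to 4. It was at 242, 707, 763 and 845 CPM in KO Treg 1 to 4. Every KO Treg library was below every KO vehicle library, and WT vehicle overlapped with both. Means were 846 ± 559 CPM in WT vehicle, 1485 ± 351 in KO vehicle and 639 ± 271 in KO Treg (SD, n = 4 each). KO Treg stood at 0.430-fold of KO vehicle (95% interval 0.187 to 0.988, log2 -1.22 ± 0.54), which did not pass the threshold (edgeR adjusted p = 0.560). Pck1 was 1 of 614 genes (5.04%) without overlap in this comparison, and the only one of the 10. The log2 fold change of KO vehicle over WT vehicle was 0.81 ± 0.54 (edgeR adjusted p = 0.603). The difference between KO Treg and KO vehicle ran from -1.62 in the lower number range alone to -0.93 without KO Treg 1, with edgeR or DESeq2 adjusted p-values from 0.337 to 0.849 over the alternatives, and it was -1.16 without the libraries with placental transcripts. The summed level of 6 skeletal muscle markers did not overlap in this comparison either, at 94.9 to 142 CPM in KO vehicle and 26.8 to 88.4 CPM in KO Treg with all 6 detected in both, and its part in the Pck1 value was not tested. That sum was mostly Acta1 (107 ± 24.4 CPM in KO vehicle, 41.9 ± 23.0 CPM in KO Treg), and 4 of the 6 markers had log2 fold changes above 0 (median over the 6, 0.16). In such bulk tissue, fewer cells of a type and less RNA per cell cannot be told apart.

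**Figure D2:**
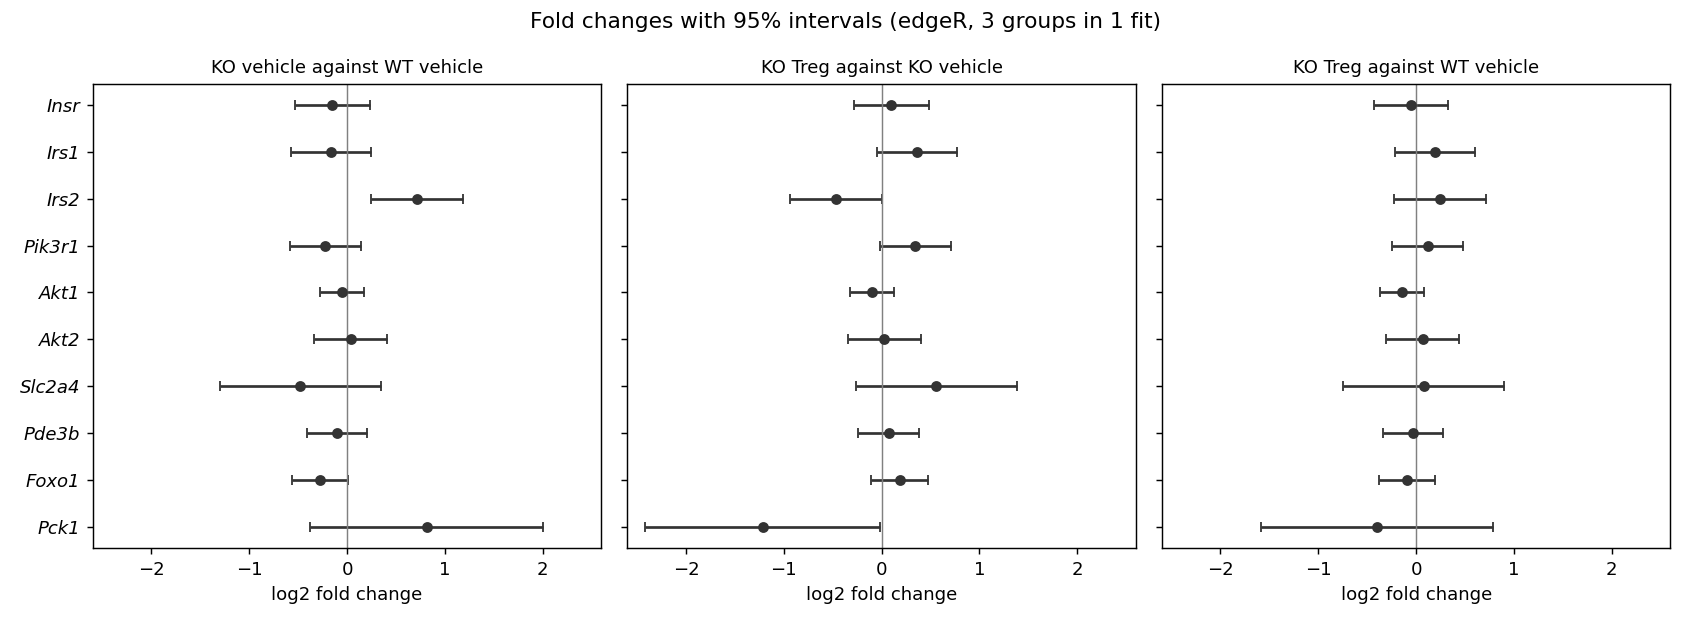
Log2 fold change of each gene (horizontal axes) in the 3 comparisons, with points for the edgeR estimate from 1 fit of 12 libraries and bars for unadjusted 95% intervals. The intervals of Irs2 in KO vehicle against WT vehicle and of Pck1 in KO Treg against KO vehicle lie to 1 side of 0, and neither gene passed after adjustment over 12175 genes.

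The 10 genes differed widely in how much they varied from animal to animal. The within-group SD of log2 CPM was 0.859 for Pck1 (97.4th percentile of the genes tested), 0.590 for Slc2a4 (90.3rd), 0.371 for Irs2 (69.7th), 0.323 for Irs1, 0.285 for Insr, 0.269 for Akt2, 0.259 for Pik3r1, 0.199 for Pde3b, 0.177 for Foxo1 and 0.0735 for Akt1. The highest library of Pck1 was 7.43 times its lowest and that of Slc2a4 3.41 times, against 1.26 times for Akt1. KO Treg 1 was the extreme library for 5 of the 10 genes: it was lowest for Irs2, Akt1 and Pck1 and highest for Irs1 and Pik3r1. Its adipocyte marker sum was 29810 CPM, near the lowest (28922 CPM in WT vehicle 3). Its Fasn level was the highest of the 12 libraries (19218 CPM). The part of either in these extremes was not tested.

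Fasn, the lipogenic gene that insulin induces, served as a reference because it varied more than nearly all other genes, with a within-group SD of 1.60 (99.8th percentile) and a 34.4-fold range. It stood at 6994, 18138, 10009 and 2141 CPM in WT vehicle 1 to 4, at 558, 778, 12524 and 2025 CPM in KO vehicle 1 to 4 and at 19218, 6694, 2341 and 15694 CPM in KO Treg 1 to 4. High and low libraries occurred in all 3 groups. The widest gap between neighbouring libraries on the log2 scale was 29.7% of the range, with 5 libraries below it and 7 above. Those below were KO vehicle 1, 2 and 4, KO Treg 3 and WT vehicle 4.

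Slc2a4 followed Fasn across the 12 libraries. Pearson's r of log2 CPM was 0.910 (permutation p = 0.0001) and Spearman's rho 0.881 (permutation p = 0.00043). It was 0.828 without KO vehicle 1 and KO vehicle 2, the libraries farthest from the median of Fasn, 0.887 with each group centred on its mean, and 0.967 within the 8 libraries of the lower number range. In an edgeR quasi-likelihood fit of every gene on Fasn, Slc2a4 rose by 0.31 ± 0.04 (SE) log2 units per log2 unit of Fasn (adjusted p = 0.000328 over 12174 genes, 36th by p). With the 3 groups as terms the slope was 0.32 ± 0.05 (edgeR adjusted p = 0.00477). Slc2a4 passed in all 12 fits that left out 1 library, with slopes from 0.30 to 0.33 and a highest adjusted p of 0.00366. Slopes passed for 498 genes (4.09%) without group terms, 2 of the 10 insulin signalling genes among them, and for 123 genes (1.01%) with group terms, Slc2a4 alone among the 10.

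Irs2 ran the other way. Its r with Fasn was -0.763 (permutation p = 0.00532) and its rho -0.818 (permutation p = 0.00192). The r was -0.710 without the farthest libraries, -0.654 with the groups centred and -0.746 in the lower range. Its edgeR slope of -0.19 ± 0.05 passed the threshold (adjusted p = 0.0356). It did not pass with the groups as terms (-0.15 ± 0.05, edgeR adjusted p = 0.288), and it passed in 4 of the 12 fits that left out 1 library, with a highest adjusted p of 0.119 without KO vehicle 2. KO vehicle 3, with the highest Fasn of its group, had the lowest Irs2 of its group, and at 116 CPM it was above all 4 WT vehicle libraries.

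Pck1 (r = -0.668, permutation p = 0.0176), Pik3r1 (0.640, permutation p = 0.0228) and Irs1 (0.637, permutation p = 0.0207) had weaker relations to Fasn. Their rho values were -0.671 (permutation p = 0.0201), 0.713 (permutation p = 0.0116) and 0.706 (permutation p = 0.0136). Without the farthest libraries r was -0.544, 0.682 and 0.506, and with the groups centred it was -0.487, 0.507 and 0.531. None of the 3 slopes passed over all genes (edgeR adjusted p = 0.257, 0.122 and 0.146). With the 3 groups as terms they did not pass either (edgeR adjusted p = 0.660, 0.513 and 0.457). Of the fits that left out 1 library, Pck1 passed in 1 of 12 (slope -0.40, edgeR adjusted p = 0.0405, without KO vehicle 3), and Pik3r1 and Irs1 in 0 of 12. For Insr, Akt1, Akt2, Pde3b and Foxo1, r lay between -0.219 and 0.132, with permutation p-values of at least 0.494. The permutation p-values of the 10 relations to Fasn are unadjusted, and the p-values adjusted for number are those of the edgeR slopes.

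**Figure D3:**
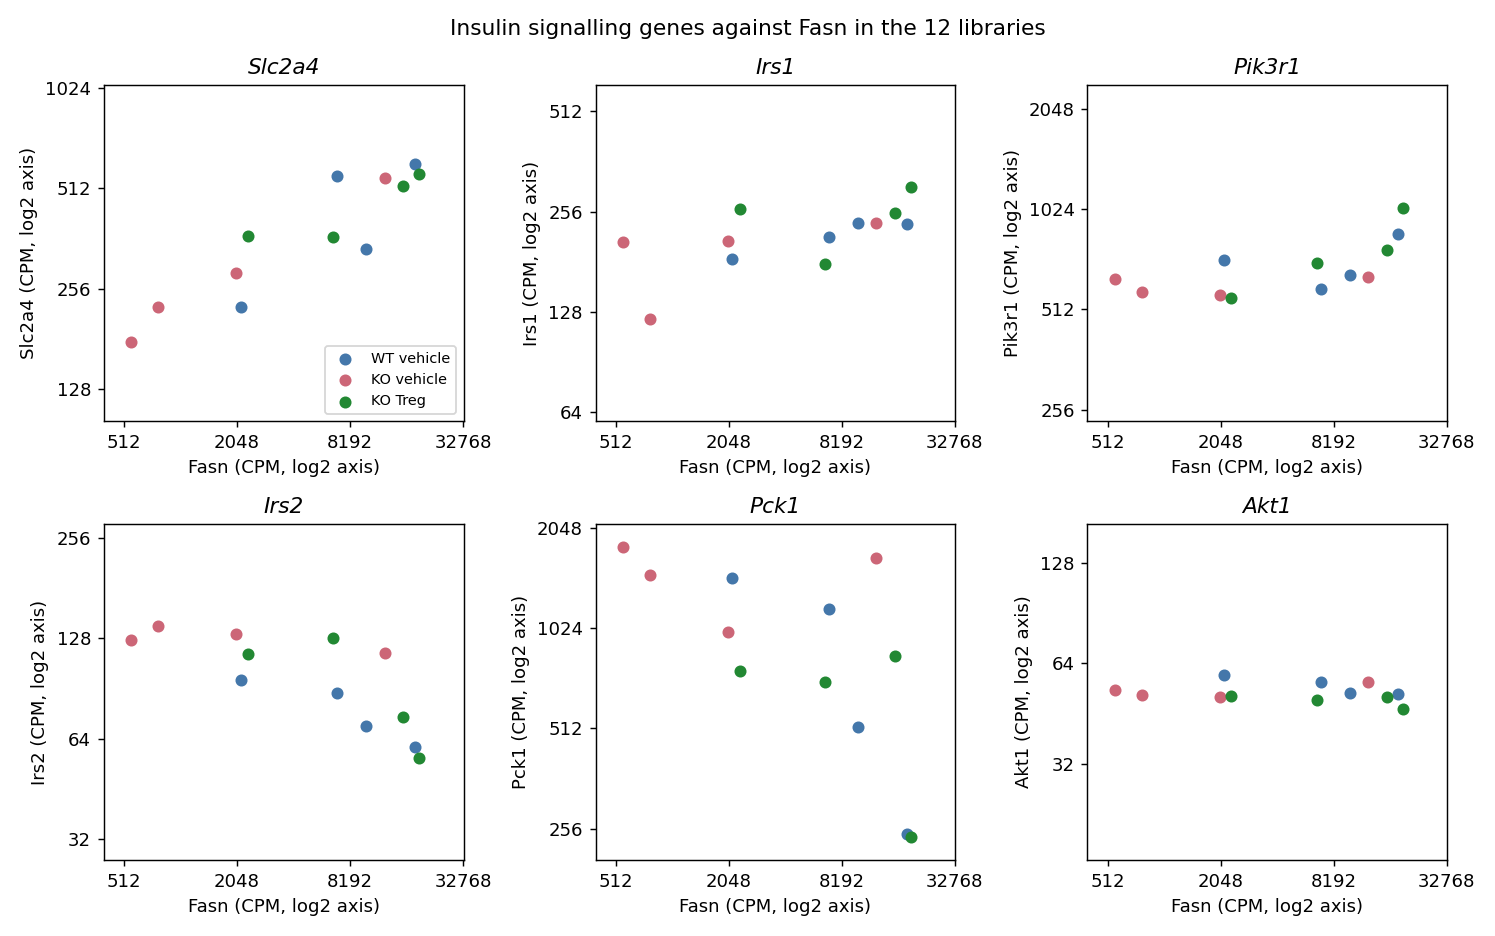
Levels of 6 of the genes (vertical axes, CPM, log2 scale) against Fasn (horizontal axes, CPM, log2 scale) in the 12 libraries, coloured by group. Slc2a4 climbs with Fasn (r = 0.910), Irs2 descends (r = -0.763), and Akt1 is flat within a 1.26-fold range.

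Among the 10 genes themselves, 45 pairs were correlated over the 12 libraries, with a median r of 0.0042 and a range from -0.778 to 0.783. After Benjamini-Hochberg adjustment over the pairs, 0 of 45 permutation tests passed 0.05, and 7 were under it before adjustment (6 by Spearman's rho). Irs2 and Pck1, the insulin-repressed genes of the set, had the highest r (0.783, permutation p = 0.00269, rho 0.650, permutation p = 0.0255). It was 0.476 without KO Treg 1 and WT vehicle 2 and 0.698 with the groups centred. Irs2 and Pik3r1 had the lowest r (-0.778, permutation p = 0.00226, rho -0.699, permutation p = 0.0143), and it was -0.483 without the same libraries and -0.781 with the groups centred. Irs1 and Irs2 were opposed (r = -0.641, permutation p = 0.0173, rho -0.678, permutation p = 0.0182), with -0.414 when KO vehicle 2 and KO Treg 1 were left out. All 3 relations were smaller in size without their farthest libraries.

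**Figure D4:**
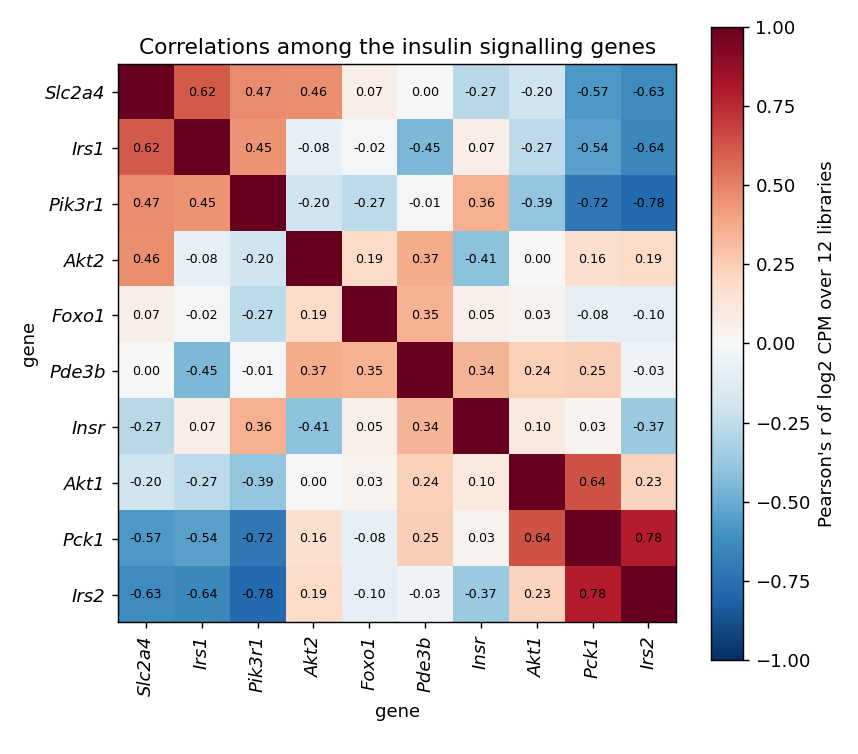
Pearson's r of log2 CPM over the 12 libraries for every pair of the 10 genes (both axes list the genes), red for positive and blue for negative, with the value in each cell. Irs2 and Pck1 form a positive pair at 0.78 and both are negative with Slc2a4, Irs1 and Pik3r1.

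The genes whose pattern over the 12 libraries was most like that of each member, by Pearson's r among 8083 other genes of at least 10 CPM, are given as a description. For Slc2a4 they were Nat8l (0.978), Syngr1 (0.969) and Coq7 (0.962). For Irs2 they were Dusp3 (0.972), Focad (0.954) and Krt79 (0.948). For Pck1 they were Acvr1c (0.898), Notch4 (0.884) and Slc16a10 (0.882). For Akt1 the closest was Cidec (0.854), a lipid droplet protein gene and one of the adipocyte markers. The closest gene was Zbtb16 for Foxo1 (0.913), Rps6ka1 for Pik3r1 (0.913), Serinc3 for Insr (0.910), Exosc5 for Irs1 (0.905), Hadh for Akt2 (0.881) and Pex3 for Pde3b (0.869). The libraries shared by all these points, their depth and their scaling enter each r.

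Other genes of the pathway, from 6 further lists, gave the surroundings of the 10. Of the 86 genes of these lists that were tested, edgeR called 0 in each of the 3 comparisons. At an unadjusted p under 0.05 there were 12 (14.0%), 13 (15.1%) and 4 (4.65%) in the order of the comparisons above, beside 12.4%, 8.77% and 2.87% of all genes tested. Among receptor and adaptor partners (10 of 12 tested), Cav1, which encodes a coat protein of caveolae, was at 341 ± 64.7 CPM in WT vehicle and 469 ± 116 CPM in KO vehicle, with overlap (edgeR adjusted p = 0.294). Enpp1, whose product inhibits the receptor, was at 3.73 ± 0.989 CPM in knockouts on vehicle and at 2.06 ± 0.801 CPM with Treg (edgeR adjusted p = 0.529).

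Among the PI3K and AKT partners (20 of 20 tested), Pik3r3, another regulatory subunit, had the smallest p. It stood at 14.9 ± 3.81 CPM in WT vehicle and 27.9 ± 8.38 CPM in KO vehicle, with no overlap (log2 0.91 ± 0.21, edgeR adjusted p = 0.0836). Pik3r2, the third subunit gene of this class, stood at 24.2 ± 3.01 CPM in KO vehicle and at 33.2 ± 2.54 CPM in KO Treg, with no overlap (log2 0.46 ± 0.13, edgeR adjusted p = 0.306). Gys1, the glycogen synthase gene of muscle and fat, stood at 352 ± 57.9 CPM in WT vehicle, 256 ± 32.3 in KO vehicle and 342 ± 52.6 in KO Treg, and KO vehicle overlapped with neither of the others (edgeR adjusted p = 0.189 and 0.440). The 3 regulatory subunit genes thus had different signs in KO vehicle against WT vehicle: Pik3r3 was above 0, and Pik3r1 (-0.22) and Pik3r2 (-0.27) were below.

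Among negative regulators (15 of 16 tested), Trib3, an AKT-binding pseudokinase gene, was at 23.3 ± 4.76 CPM in WT vehicle and 33.2 ± 6.36 CPM in KO vehicle (edgeR adjusted p = 0.345). Socs1 and Trib1 had log2 fold changes of -0.75 and -0.50 in KO Treg against KO vehicle, both with overlap (edgeR adjusted p = 0.523 and 0.517). Grb14, an adaptor that inhibits the receptor, was named for the smallest p of this list in KO Treg against WT vehicle. It was at 2.43 ± 0.728 CPM in KO vehicle and at 1.47 ± 0.320 CPM in KO Treg without overlap (edgeR adjusted p = 0.604). These levels rest on 17 to 34 counts per library in KO vehicle and 9 to 15 in KO Treg. The nearest libraries of the 2 groups stood at 1.94 and 1.82 CPM. Among genes of GLUT4 traffic (13 of 14 tested), Tusc5 (the older symbol of Trarg1, a GLUT4 vesicle protein) was at 94.9 ± 18.9 CPM in WT vehicle and 158 ± 30.9 CPM in KO vehicle, without overlap (edgeR adjusted p = 0.172). Its sign in that comparison (log2 0.73) was opposite to that of Slc2a4 (-0.48).

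In the list of FOXO family genes and genes that FOXO factors or fasting induce (16 of 20 tested), the members did not share a direction, with 8 above and 8 below 0 in KO vehicle against WT vehicle. At an unadjusted edgeR p under 0.05 there were 5 of the 16 (1 above 0 and 4 below), beside 12.4% of all genes tested. In KO Treg against KO vehicle there were 5 of the 16 (2 above 0 and 3 below), beside 8.77%. Klf15, a fasting-responsive transcription factor gene that acts on Pck1 in liver, stood at 13.03 ± 3.60 CPM in WT vehicle, 4.82 ± 2.15 in KO vehicle and 10.7 ± 4.88 in KO Treg (edgeR adjusted p = 0.115 and 0.375). Angptl4, an inhibitor of lipoprotein lipase, stood at 617 ± 82.8, 960 ± 113 and 673 ± 218 CPM (edgeR adjusted p = 0.166 and 0.461). For Klf15 and Angptl4 alike, KO vehicle overlapped with KO Treg but not with WT vehicle. Pdk4, which holds back glucose oxidation, stood at 20.4 ± 9.01 CPM in KO vehicle and at 6.74 ± 2.21 CPM in KO Treg without overlap (edgeR adjusted p = 0.411), the same direction as Pck1.

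Of the 12 insulin-induced lipogenic genes, Fasn included, all 12 had log2 fold changes below 0 in KO vehicle against WT vehicle (median -1.05). All 12 were above 0 in KO Treg against KO vehicle (median 1.18), and these comparisons share the KO vehicle libraries. Of all genes tested, 49.2% and 49.7% were above 0. KO vehicle 3 was high in Fasn, at 12524 CPM against at most 2025 CPM in the rest of its group. How far the 12 genes vary together was not tested, so they cannot be counted as 12 separate observations. None passed the test, and 1 and 2 of the 12 were under an unadjusted p of 0.05, beside 12.4% and 8.77% of all genes tested. Mlxipl, which encodes the carbohydrate response factor ChREBP, stood at 276 ± 115 CPM in WT vehicle, 138 ± 32.2 in KO vehicle and 243 ± 74.8 in KO Treg, and KO vehicle overlapped with neither (edgeR adjusted p = 0.146 and 0.409). The medians of the 10 insulin signalling genes in the same comparisons were -0.13 and 0.09.

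Positions are those of the GENCODE M21 annotation on GRCm38 (mm10). Insr is at chr8:3122061-3279617 and Irs2 at chr8:10984681-11008458, Akt2 at chr7:27591552-27640826 and Pde3b at chr7:114415281-114539251. Irs1 is at chr1:82233101-82291416, Pck1 at chr2:173153048-173159273, Foxo1 at chr3:52268336-52353221 and Slc2a4 at chr11:69942539-69948188. Akt1 is at chr12:112653821-112674884 and Pik3r1 at chr13:101680563-101768217. The GENCODE and RefSeq start sites of a gene need not coincide. For Irs2, on the minus strand, the GENCODE gene begins at 11008458, while the stretch shown above runs from 11008930 to 11009179. The motif positions given for Irs2 therefore hold for its RefSeq start only.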

How the data were processed

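The values the authors deposited are raw counts of 3' reads for each gene, 1 table for each of 12 libraries. The submitters' processing notes name HTSeq 0.6.1, TopHat2 2.1.1, SAMtools 1.3.1 and BWA 0.7.12, and the build mm10; no source used here gives their roles. From 20632 symbols, filterByExpr in edgeR 4.0.16 (R 4.3.3) kept 12175. After TMM scaling, the counts were tested with edgeR's quasi-likelihood test (robust), the 3 groups in 1 fit, with Benjamini-Hochberg adjustment over all genes tested and a threshold of 0.05. Scripts were tested on simulated data. CPM were computed from the deposited counts, and log2 CPM used a prior count of 2. Correlations and their permutation p-values (100000 resamples, two-sided) were computed in NumPy 2.4.6, with ranks from SciPy 1.17.1. A planned adjustment of the Fasn relations over the 10 genes was replaced by edgeR slopes over all genes. At these depths 3 counts correspond to 0.241 to 0.539 CPM, for counting error only. The 10 genes and the pathway and marker lists were chosen with earlier results of these data known. All 10 genes are named; other genes were named as the genes of smallest p in each list and comparison (up to 2), the 3 most alike of each gene, and Fasn and Tnfrsf11a, of which the text gives some. Alternatives were RLE scaling, no filter, DESeq2 1.42.0, fits of 2 groups, the animal number range (lower or higher) as a covariate, the lower range alone, and leaving out each library.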

Additional observations from a re-analysis of the deposited data

How the results depend on the processing

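The count of 0 of 10 genes past the threshold held under all 19 alternatives in each comparison. The count over all genes between KO vehicle and WT vehicle, 34 with edgeR, was 259 with DESeq2, 0 in the lower number range alone or with the range as a covariate, and 1 to 125 with 1 library left out; between KO Treg and KO vehicle it was 1 with edgeR and 68 with DESeq2. Of 30 fold changes, 19 kept their sign throughout and 11 changed it somewhere, and none of the 30 passed the threshold in any of these fits. In the lower number range alone, the log2 fold change of Insr was 0.0224 in KO vehicle against WT vehicle and 0.14 in KO Treg against WT vehicle. Those of Akt2 were -0.28 and -0.28, and that of Slc2a4 in the latter was -0.31. With the range as a covariate, Akt2 in KO vehicle against WT vehicle was -0.0860. Without the libraries with placental transcripts (chosen after seeing the data), Insr in KO Treg against WT vehicle was 0.0613 and Akt2 in KO Treg against KO vehicle -0.0366. Leaving out 1 library at a time gave a range of -0.10 to 0.24 for Akt2 in KO vehicle against WT vehicle. In KO Treg against KO vehicle it gave -0.0032 to 0.22 for Insr, -0.0023 to 0.10 for Akt2 and -0.0057 to 0.21 for Pde3b. In KO Treg against WT vehicle it gave -0.17 to 0.0838 for Insr, -0.14 to 0.28 for Slc2a4, -0.0511 to 0.29 for Akt2, -0.0554 to 0.25 for Pik3r1, -0.11 to 0.0326 for Pde3b and -0.18 to 0.0144 for Foxo1.

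The correlation with Fasn changed sign for 4 genes of low r. Without the libraries farthest from its median it was 0.0581 for Insr, 0.283 for Pde3b and -0.213 for Foxo1. For Foxo1 it was -0.411 with groups centred and -0.456 with number range and group centred, where Akt2 was at -0.0151. Without 1 library (added after seeing the data) it ran from -0.232 to 0.219 for Pde3b and from -0.0851 to 0.210 for Foxo1. The cause was not tested. No paired analysis was possible because the replicate numbers come from accession order. The 95% interval of KO vehicle over WT vehicle was widest for Pck1 (log2 -0.38 to 2.002) and narrowest for Akt1 (-0.28 to 0.17), which bounds what 4 animals a group could show.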

Other observations

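Of the values of the 10 genes in the 30 groups of 4 libraries, 0 held a library beyond the 95% critical value of Dixon's test. WT vehicle 1, with the highest brown or beige adipocyte sum (5507 CPM), also had the highest Akt2 (1045 CPM) and Foxo1 (201 CPM) of the 12 libraries, while its levels of Insr (141 CPM), Irs1 (215 CPM) and Pde3b (309 CPM) lay within the range of the other libraries.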
